A study of Homo sapiens with 9 samples.

Results

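The mRNAs of 9 enzymes that run the pentose phosphate pathway, make NADPH in the cytosol or pass ribose 5-phosphate to nucleotide synthesis were followed in 9 RNA sequencing libraries of HCT116, an established human colon carcinoma line. The enzymes, PGLS, PGD, RPIA, RPE, TKT, TALDO1, ME1, IDH1 and PRPS1, were taken by gene symbol and Ensembl identifier, and all 9 were found among the 58395 genes listed in each deposited table. Every cell in the comparison carried shSTBD1, a short hairpin RNA against STBD1, a glycogen-binding protein proposed to deliver glycogen to autophagosomes. Onto this background, lentivirus had added the vector plvx-ires-neo without insert (plvx neo), the same vector with a hairpin-resistant STBD1 (STBD1 WT), or that construct with 1 tryptophan replaced by cysteine (STBD1 W203C). Each group had 3 libraries, described as biological replicates, and the sources do not state whether a line was a pool or a single clone. Cells without the hairpin were not analysed here. Table names gave WT and W203C the opposite way from the sample titles; the titles were followed, so each group stands for the libraries labelled with that name, and an exchange would turn the directions of W203C vs. WT and give each construct the other's differences from the vector.

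The pentose phosphate pathway branches from glycolysis at glucose 6-phosphate. Its oxidative branch makes NADPH and ribulose 5-phosphate, and its non-oxidative branch interconverts sugar phosphates, joining ribose 5-phosphate to fructose 6-phosphate and glyceraldehyde 3-phosphate of glycolysis. NADPH feeds fatty acid and sterol synthesis and the reduction of glutathione and thioredoxin, and ribose 5-phosphate becomes phosphoribosyl pyrophosphate (PRPP), the sugar donor of purine and pyrimidine nucleotides. Growing tumour cells draw on both products.

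The libraries held from 16881429 to 23278126 expected counts, and the 9 enzymes together took 0.141% to 0.147% of them. STBD1 had 2.75 to 3.84 TPM (the RSEM level, corrected for transcript length and library total) with plvx neo, 10.8 to 10.9 with STBD1 WT and 8.37 to 10.3 with STBD1 W203C, so both constructs were above the vector. The overlapping read-through gene FAM47E-STBD1 held more of the signal than STBD1 with either construct, but less with plvx neo (0.96 to 2.41 TPM). The sum of both ran from 4.12 to 5.62, from 52.3 to 57.0 and from 43.5 to 47.9 TPM in the same order of groups. Of the 7 epithelial markers listed for this line all but VIL1, at 0.08 TPM or less, were expressed, and the summed epithelial level was 3798 to 3898 TPM with plvx neo, 3393 to 3528 with STBD1 WT and 3177 to 3437 with STBD1 W203C. Of the 7 leukocyte, fibroblast and endothelial markers, COL1A1 reached 12.6 to 21.6 TPM and the other 6 stayed at or below 0.21 TPM, and their sum ran from 14.0 to 16.6, 16.4 to 21.9 and 12.7 to 18.3 TPM in the same order of groups. Their part in the results was not tested. In such bulk libraries, fewer cells with a transcript and less of it per cell cannot be told apart.

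In all, 4 enzymes passed the test between STBD1 WT and the vector, and the stretches before their gene starts are shown because these are the promoters of the mRNAs that moved. They come from RefSeq on GRCh38.p14, read 5′ to 3′ on the gene's strand and ending just before the gene start of GENCODE v44. Capitals mark TGACNNNGC, the core of the antioxidant response element bound by NRF2. ME1 has chr6:83431052-83431301 on the minus strand, RPIA chr2:88691423-88691672, RPE chr2:210002388-210002564 and PRPS1 chrX:107628260-107628427, the last 3 on the plus strand.
ME1: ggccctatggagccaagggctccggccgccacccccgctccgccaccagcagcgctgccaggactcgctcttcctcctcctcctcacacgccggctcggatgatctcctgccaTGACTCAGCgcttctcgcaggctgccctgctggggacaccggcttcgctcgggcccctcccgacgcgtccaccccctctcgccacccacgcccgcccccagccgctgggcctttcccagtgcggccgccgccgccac
RPIA: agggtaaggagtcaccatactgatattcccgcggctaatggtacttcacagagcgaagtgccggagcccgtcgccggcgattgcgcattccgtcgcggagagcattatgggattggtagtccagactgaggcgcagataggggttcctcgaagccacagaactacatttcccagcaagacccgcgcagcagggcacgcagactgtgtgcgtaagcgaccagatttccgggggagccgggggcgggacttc
RPE: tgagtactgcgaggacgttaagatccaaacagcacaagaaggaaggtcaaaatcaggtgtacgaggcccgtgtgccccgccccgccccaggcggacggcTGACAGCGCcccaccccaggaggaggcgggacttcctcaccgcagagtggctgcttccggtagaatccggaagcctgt
PRPS1: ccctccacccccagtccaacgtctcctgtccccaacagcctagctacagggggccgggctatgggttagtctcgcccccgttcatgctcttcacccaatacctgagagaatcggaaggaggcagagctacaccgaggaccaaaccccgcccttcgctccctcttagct

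The 5 motifs were searched on both strands of RefSeq windows from 250 bases before to 50 bases after the transcription start, 35116 windows over all genes. TGACNNNGC was in the windows of ME1, PGD, IDH1 and RPE and in 13.3% of all windows. ME1, the mRNA that rose, has TGACTCAGC 137 bases before the start and, on the other strand, GCACCGTCA 11 bases after it. RPE, an mRNA that fell, has TGACAGCGC 151 bases before the RefSeq start, which for RPE and PRPS1 lies downstream of the GENCODE start where the printed stretches end. ACGTG, the core of the hypoxia response element, was in the windows of IDH1 and PGD and in 21.4% of all. No enzyme's window held the E-box CACGTG (7.26% of all windows), the C/EBP-ATF composite TGATGNAA (3.62%) or the sterol response motif TCACNCCAC (1.13%). A match describes letters in a window and says nothing of binding.

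The 9 mRNAs spanned a 15.3-fold range of mean level, and the 4 highest kept their order in every library. TKT was highest, at a mean of 462 TPM over the 9 libraries, followed by TALDO1 at 200.2, PGD at 138 and IDH1 at 62.6 TPM, and in these 4 no library of one enzyme overlapped any library of the next. PGLS (46.6 TPM), PRPS1 (45.4) and RPIA (45.1) overlapped, as did ME1 (31.0) and RPE (30.3), so these neighbours cannot be ordered. TKT alone made up 42.3% to 44.8% of the TPM of the 9. Their summed level was 1046 ± 17.8 TPM with plvx neo, 1037 ± 15.9 with STBD1 WT and 1101 ± 9.90 with STBD1 W203C (mean ± SD, n = 3). On log2(TPM + 1) the median of all genes was also higher in W203C, by 0.040 vs. WT and 0.0375 vs. plvx neo. In counts those medians were -0.0078 and -0.0031. The sum was not tested between groups.

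**Figure D1:**
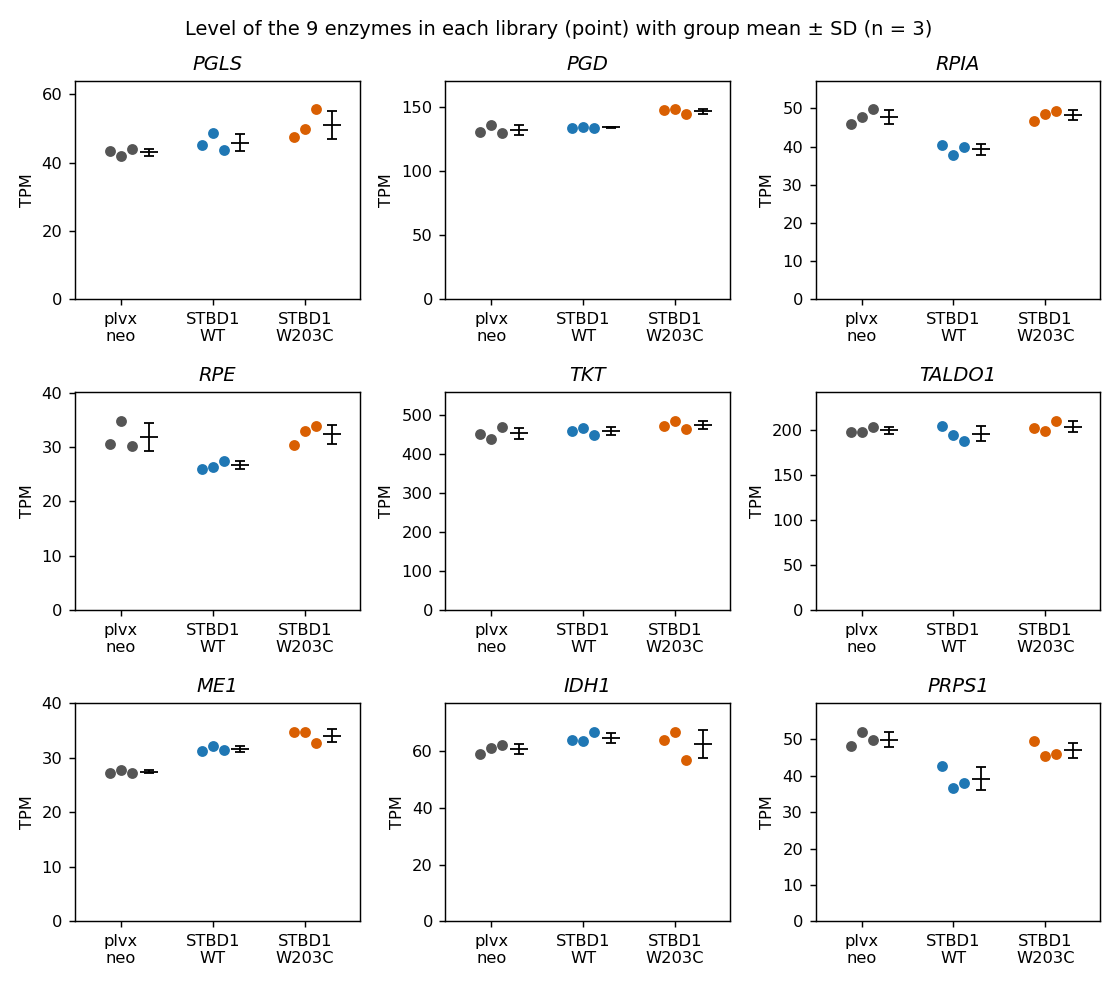
Level of each of the 9 enzymes, in TPM with axes from 0, in the 3 libraries of each group (points), beside the group mean ± SD (black). RPIA, RPE and PRPS1 lie lower in STBD1 WT than in both other groups with no overlap, ME1 lies lowest in plvx neo, and TKT and TALDO1 overlap across the 3 groups.

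In the oxidative branch, the means of both enzymes were highest in STBD1 W203C. PGLS (ENSG00000130313, chr19:17511636-17521288) opens the lactone ring of 6-phosphogluconolactone. Its level was 43.3, 41.8 and 43.9 TPM with plvx neo, 45.2, 48.5 and 43.6 with STBD1 WT and 47.6, 49.9 and 55.5 with STBD1 W203C. STBD1 WT overlapped both other groups, whereas every W203C library was above every vector library. The log2 fold change of PGLS in counts was 0.09 (SE 0.0664) for STBD1 WT vs. plvx neo, 0.12 (SE 0.0693) for W203C vs. WT and 0.20 (SE 0.0679) for W203C vs. plvx neo, with p from edgeR's quasi-likelihood test, adjusted by Benjamini-Hochberg (BH), of 0.346, 0.232 and 0.0866. None passed the threshold of 0.05.

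PGD (ENSG00000142657, chr1:10398592-10420511) is the NADPH-forming 6-phosphogluconate dehydrogenase that releases ribulose 5-phosphate. It stood at 131, 136 and 129.7 TPM with plvx neo, 134, 135 and 134 with STBD1 WT and 148, 148 and 145 with STBD1 W203C. The 3 W203C libraries lay above the other 6. PGD was higher in W203C than in WT by a log2 fold change of 0.10 (SE 0.0357, 95% interval 0.030 to 0.18, edgeR quasi-likelihood BH adjusted p = 0.0330), which is 7.51%. Against plvx neo the W203C difference was 0.11 (SE 0.0379, adjusted p = 0.0863), and the WT difference was 0.013 (SE 0.0372, adjusted p = 0.835). The W203C vs. WT call was lost without WT replicate 2 or 3 or without W203C replicate 1 or 2, with edgeR adjusted p from 0.0529 to 0.103.

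The 2 enzymes that act directly on ribulose 5-phosphate were both lower in STBD1 WT. RPIA (ENSG00000153574, chr2:88691673-88750929) converts it to ribose 5-phosphate. RPIA had 45.9, 47.8 and 49.7 TPM with plvx neo, 40.4, 37.7 and 39.9 with STBD1 WT and 46.7, 48.5 and 49.3 with STBD1 W203C. All 3 WT libraries were below the other 6, and the vector and W203C ranges overlapped. RPIA fell by 0.28 on the log2 scale in WT vs. plvx neo (SE 0.0477, 95% interval -0.38 to -0.18, edgeR quasi-likelihood BH adjusted p = 1.5e-04), to 0.821 of the vector level. In W203C vs. WT it was higher by 0.26 (SE 0.0484, 95% interval 0.16 to 0.36, adjusted p = 3.4e-04), and in W203C vs. plvx neo the difference was -0.027 (95% interval -0.13 to 0.072, adjusted p = 0.830). Both RPIA calls held in every alternative fit, leaving out each library included.

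RPE (ENSG00000197713, chr2:210002565-210022260) is the epimerase that turns ribulose 5-phosphate into xylulose 5-phosphate for transketolase. Its level was 30.7, 34.9 and 30.2 TPM with plvx neo, 26.1, 26.4 and 27.5 with STBD1 WT and 30.4, 32.9 and 33.8 with STBD1 W203C. As for RPIA, the 3 WT libraries were below the other 6. RPE fell by 0.23 on the log2 scale in WT vs. plvx neo (SE 0.0521, edgeR quasi-likelihood BH adjusted p = 0.00267) and was higher by 0.18 in W203C vs. WT (SE 0.0576, adjusted p = 0.0252), while W203C vs. plvx neo gave -0.055 (SE 0.0590, adjusted p = 0.684). The W203C vs. WT call was lost on leaving out any 1 of WT replicates 1, 2 and 3 or W203C replicates 2 and 3, with edgeR adjusted p from 0.0531 to 0.131. The 3′ end of the RPE gene overlaps KANSL1L on the other strand, a gene with 123 to 181 expected counts per library, and whether the counting used strand is not given in the sources used here.

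The ratio of PGD to RPIA sets an enzyme of each branch side by side within each library, and does not stand for the whole branches. It averaged 2.77 ± 0.141 with plvx neo, 3.42 ± 0.134 with STBD1 WT and 3.05 ± 0.117 with STBD1 W203C (ratio of TPM, mean ± SD, n = 3), and the 3 groups did not overlap. RPIA to RPE, by contrast, ran from 1.37 to 1.65, from 1.43 to 1.55 and from 1.46 to 1.54, with overlap among all groups. TKT to PGD, another pair across the branches, ran from 3.23 to 3.62, from 3.35 to 3.47 and from 3.20 to 3.28. There plvx neo overlapped both other groups, and WT was above W203C.

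TKT and TALDO1, the transferases that shuttle carbon units between sugar phosphates, showed no difference that passed the test. TKT (ENSG00000163931, chr3:53224712-53256052), the thiamine-dependent transketolase, had 451, 439.7 and 469.7 TPM with plvx neo, 461, 468 and 449 with STBD1 WT and 473, 486 and 465 with STBD1 W203C. TALDO1 (ENSG00000177156, chr11:747415-765012), transaldolase, had 198, 198 and 204 TPM with plvx neo, 205, 195 and 189 with STBD1 WT and 202, 199.6 and 211 with STBD1 W203C. Within both genes each pair of groups overlapped. For TKT the 95% intervals of the log2 fold change were -0.062 to 0.090 in WT vs. plvx neo, -0.047 to 0.099 in W203C vs. WT and -0.037 to 0.11 in W203C vs. plvx neo. For TALDO1 they were -0.10 to 0.064, -0.066 to 0.10 and -0.085 to 0.075. With offsets for GC content and length, TKT was lower in WT vs. plvx neo (log2 fold change -0.093, edgeR adjusted p = 0.0330) and higher in W203C vs. WT (0.13, adjusted p = 0.00658). These offsets also moved the median of all genes, from 0.0061 to -0.039 in WT vs. plvx neo and from -0.0078 to 0.037 in W203C vs. WT.

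Of the cytosolic NADPH producers outside the pathway, ME1 was higher with either construct and IDH1 was not called in any comparison. ME1 (ENSG00000065833, chr6:83210402-83431051), malic enzyme 1, oxidizes malate to pyruvate. ME1 had 27.2, 27.8 and 27.3 TPM with plvx neo, 31.2, 32.3 and 31.4 with STBD1 WT and 34.7, 34.8 and 32.7 with STBD1 W203C. The 3 groups did not overlap in TPM, with the vector lowest and W203C highest. In CPM, counts scaled by library total and TMM factor, WT reached 97.0 and W203C began at 96.2, so those groups overlapped. ME1 was higher by 0.21 on the log2 scale in WT vs. plvx neo (SE 0.0436, 95% interval 0.12 to 0.30, edgeR quasi-likelihood BH adjusted p = 0.00105) and by 0.28 in W203C vs. plvx neo (SE 0.0447, 95% interval 0.18 to 0.37, adjusted p = 3.0e-04). The difference between the constructs was 0.069 (SE 0.0419, 95% interval -0.018 to 0.16, adjusted p = 0.237). The W203C vs. plvx neo call was lost by a narrow margin with effective-length offsets (edgeR adjusted p = 0.0502) and with limma on log2 TPM (adjusted p = 0.0512 and 0.0518).

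IDH1 (ENSG00000138413, chr2:208236229-208266074), the cytosolic isocitrate dehydrogenase, had 58.8, 61.1 and 62.1 TPM with plvx neo, 63.9, 63.4 and 66.8 with STBD1 WT and 63.8, 66.8 and 56.9 with STBD1 W203C. The WT libraries lay above the vector libraries, and W203C spanned both, with its replicate 3 the lowest of all 9. The log2 fold changes were 0.066 (95% interval -0.015 to 0.15), -0.055 (-0.15 to 0.035) and 0.0054 (-0.088 to 0.099) for WT vs. plvx neo, W203C vs. WT and W203C vs. plvx neo, with edgeR quasi-likelihood BH adjusted p = 0.226, 0.374 and 0.972. The ratio of IDH1 to ME1 averaged 2.21 ± 0.0568, 2.05 ± 0.0804 and 1.83 ± 0.0900 in plvx neo, STBD1 WT and STBD1 W203C (ratio of TPM, mean ± SD, n = 3).

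PRPS1 (ENSG00000147224, chrX:107628428-107651993) makes PRPP from ribose 5-phosphate and ATP and so commits the pathway's ribose to nucleotides. Its level was 48.1, 52.1 and 49.8 TPM with plvx neo, 42.7, 36.7 and 38.1 with STBD1 WT and 49.5, 45.6 and 46.0 with STBD1 W203C. The 3 WT libraries were again below the other 6. PRPS1 fell by 0.26 on the log2 scale in WT vs. plvx neo (SE 0.0462, 95% interval -0.36 to -0.17, edgeR quasi-likelihood BH adjusted p = 2.5e-04), to 0.834 of the vector level. It was higher by 0.19 in W203C vs. WT (SE 0.0495, 95% interval 0.091 to 0.30, adjusted p = 0.00531), and W203C vs. plvx neo gave -0.073 (SE 0.0499, adjusted p = 0.461). With effective-length offsets the W203C vs. WT difference was 0.23 and its call was lost (edgeR adjusted p = 0.0765). Its pseudogene PRPS1P2 held 12 to 25 counts per library, at most 2.02% of their sum.

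Over all 9 enzymes, STBD1 WT vs. plvx neo gave 4 calls, ME1 higher and RPIA, RPE and PRPS1 lower. Of the 15289 genes tested, 27.8% were called, 13.9% higher and 13.9% lower, and the 4 of 9 are a count over few genes that can be read only beside that background. Of the 4254 calls 2128 were higher in WT, and with GC and length offsets the share of higher calls was 33.2%. In 5 enzymes, the 4 called and IDH1, the groups did not overlap in CPM, against 40.4% of all genes. In TPM, a pair of groups that did not overlap had an exact permutation p = 0.1, the smallest that 3 against 3 libraries allow. The median log2 fold change of the 9 was 0.013, and that of all genes tested was 0.0061. In size, 24.0% of all genes tested had a larger absolute log2 fold change than RPIA and 35.2% a larger one than ME1.

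STBD1 W203C vs. STBD1 WT also gave 4 calls, PGD, RPIA, RPE and PRPS1, all higher in W203C. Of 15052 genes tested, 27.9% were called, 14.5% higher and 13.4% lower, and these 4 enzymes also had groups that did not overlap in CPM, against 41.3% of all genes. The median log2 fold change of the 9 was 0.10, and that of all genes was -0.0078. Of all calls in this comparison 51.8% were higher in W203C, a share that moved to 40.7% with upper-quartile scaling, to 69.8% and 70.0% with limma on log2 TPM and to 69.1% with GC and length offsets. Only 2 enzymes remained called, with upper-quartile scaling (RPIA and PRPS1), with effective-length offsets (RPIA and RPE), or without WT replicate 2, WT replicate 3 or W203C replicate 2 (RPIA and PRPS1).

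STBD1 W203C vs. plvx neo gave 1 call, ME1 higher, where 5.7% of 15081 genes were called, 3.03% higher and 2.67% lower. Of all calls 53.2% were higher in W203C, a share that moved to 72.9% and 73.8% with limma on log2 TPM. PGLS, PGD and ME1 had groups that did not overlap in CPM, against 23.5% of all genes. The median log2 fold change of the 9 was 0.0054, and that of all genes was -0.0031. The 3 comparisons share libraries in pairs, so RPIA, RPE and PRPS1 counted as lower in WT vs. plvx neo and as higher in W203C vs. WT rest on the same 3 WT libraries.

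**Figure D2:**
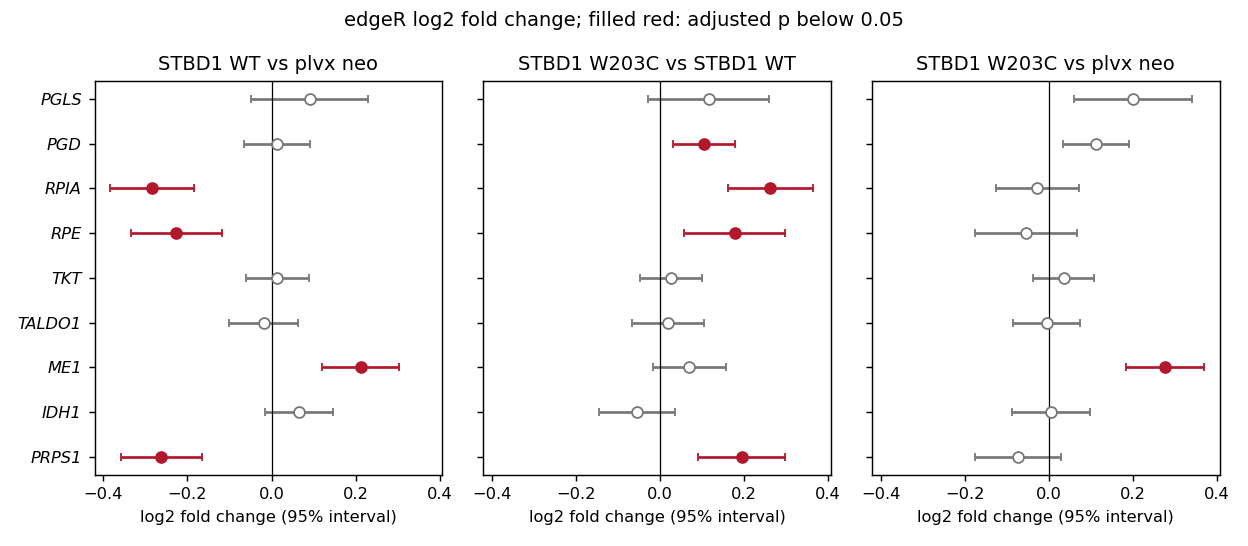
Log2 fold change in counts of the 9 enzymes with 95% intervals (bars) in the 3 comparisons, filled red where the edgeR adjusted p was below 0.05. RPIA, RPE and PRPS1 lie left of 0 in STBD1 WT vs. plvx neo and right of 0 in STBD1 W203C vs. STBD1 WT, and ME1 lies right of 0 in both comparisons with plvx neo.

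The transcripts behind the gene values were the same across libraries for RPIA and ME1, but not for the other enzymes, PRPS1, RPE and IDH1 among them. RSEM's weighted transcript length was the same in all 9 libraries for RPIA (1848 bases) and for ME1 (3371 bases), so a difference between their TPM and counts is one of scaling. For PRPS1 it averaged 1753 ± 35.3 bases with plvx neo, 1855 ± 126 with STBD1 WT and 1810 ± 17.2 with STBD1 W203C. There WT overlapped both other groups, and every W203C library was above every plvx neo library. For RPE it averaged 2128 ± 77.6, 2166 ± 33.0 and 2077 ± 47.3 bases, with every WT library above every W203C library (exact permutation p = 0.1, two-sided, the smallest that 3 against 3 allows). For IDH1 it averaged 2328.9 ± 10.9, 2287.5 ± 46.7 and 2331.9 ± 22.5 bases, with every WT library below those of both other groups (exact permutation p = 0.1 for each).

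Enzymes of purine and pyrimidine nucleotide synthesis were, like PRPS1, mostly lower in STBD1 WT than with the vector. The list held 18 genes of purine and pyrimidine synthesis, all tested. With STBD1 WT vs. plvx neo, 12 list genes were called, 11 lower and 1 higher, where 27.8% of all genes were called, with a median log2 fold change of -0.15. GART, a trifunctional enzyme of purine synthesis, went from 115 ± 6.71 TPM to 91.0 ± 1.31 and fell by 0.35 (SE 0.0396, edgeR quasi-likelihood BH adjusted p = 1.7e-06). PAICS, the next bifunctional enzyme of that path, went from 232 ± 9.71 to 183 ± 8.91 TPM and fell by 0.29 (SE 0.0411, adjusted p = 2.2e-05). The 1 gene that rose was ADSS1, an adenylosuccinate synthase at 3.91 ± 0.652 and 4.97 ± 0.995 TPM, with a log2 fold change of 0.49 (SE 0.175, adjusted p = 0.0419).

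With STBD1 W203C vs. STBD1 WT, 10 list genes were called, all higher, where 14.5% of all genes were called higher, with a median log2 fold change of 0.17. UMPS, which completes UMP, was higher by 0.31 (SE 0.0527, edgeR quasi-likelihood BH adjusted p = 1.3e-04), although its TPM overlapped, at 27.0 to 47.6 in WT and 45.5 to 54.7 in W203C. CTPS1, which makes CTP, was higher by 0.27 (SE 0.0434, adjusted p = 9.0e-05), at 40.4 ± 3.69 and 52.5 ± 3.52 TPM. PAICS was higher by 0.25 (SE 0.0381, adjusted p = 5.1e-05), at 228 ± 13.0 TPM in W203C. Against plvx neo, where 5.7% of all genes were called, W203C gave 2 calls, with CAD, the first enzyme of pyrimidine synthesis, higher by 0.17 (SE 0.0364, adjusted p = 0.00596) and GART at -0.14 (SE 0.0389, adjusted p = 0.0282). The median over the 18 was then -0.022.

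Among 15 other genes of the pentose phosphate pathway and of ribose use, 11 were tested. STBD1 WT vs. plvx neo gave 3 calls, a share close to the 27.8% of all genes. H6PD, the hexose 6-phosphate dehydrogenase of the endoplasmic reticulum, rose from 3.83 ± 0.356 to 4.92 ± 0.310 TPM by a log2 fold change of 0.36 (SE 0.0757, edgeR quasi-likelihood BH adjusted p = 0.00125). PRPS2, the second PRPP synthetase, went from 42.5 ± 1.40 to 37.2 ± 2.24 TPM and fell by 0.26 (SE 0.0469, adjusted p = 3.0e-04), beside -0.26 for PRPS1, and SHPK, sedoheptulokinase, fell by 0.22 (SE 0.0566, adjusted p = 0.00597). STBD1 W203C vs. STBD1 WT gave 3 calls as well, beside 27.9% of all genes, H6PD at -0.56 (SE 0.0644, adjusted p = 1.9e-06), XYLB, xylulokinase, at 0.38 (SE 0.116, adjusted p = 0.0163) and SHPK at 0.21 (SE 0.0657, adjusted p = 0.0216). W203C vs. plvx neo gave 1 call, beside 5.7% of all genes, PRPS2 at -0.18 (SE 0.0459, edgeR adjusted p = 0.0163) in counts. Its TPM was 45.4 ± 2.18 in W203C and 42.5 ± 1.40 in the vector, so its direction there differed between counts and TPM. The part of transcript length in that was not tested.

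Of 14 genes listed as other NADPH producers, mostly mitochondrial or of folate metabolism, 10 were tested. The list is broad, and some of its genes, such as MTHFD1L, do not form NADPH themselves, so its calls do not measure NADPH production. In STBD1 WT vs. plvx neo 5 were called, 4 lower and 1 higher, beside 27.8% of all genes. MTHFD2, the mitochondrial methylenetetrahydrofolate dehydrogenase, went from 270.1 ± 10.1 to 169.9 ± 6.46 TPM, a log2 fold change of -0.60 (SE 0.0377, edgeR quasi-likelihood BH adjusted p = 5.2e-10), and MTHFD1L, the mitochondrial formate-releasing synthetase, fell by 0.39 (SE 0.0438, adjusted p = 1.5e-06). IDH2, the mitochondrial partner of IDH1, rose from 38.1 ± 1.53 to 45.7 ± 1.28 TPM by 0.27 (SE 0.0545, adjusted p = 7.8e-04). In W203C vs. WT 6 were called, 5 higher and 1 lower, beside 27.9% of all genes, with IDH2 at -0.37 (SE 0.0515, adjusted p = 1.5e-05), MTHFD2 at 0.31 (SE 0.0422, adjusted p = 1.3e-05) and MTHFD2L at 0.29 (SE 0.0941, adjusted p = 0.0264). W203C vs. plvx neo gave 2 calls, beside 5.7% of all genes, MTHFD2 at -0.30 (SE 0.0387, adjusted p = 2.0e-05) and MTHFD1L at -0.15 (SE 0.0411, adjusted p = 0.0245).

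Of 11 NADPH users, 10 were tested, and 5 were called in STBD1 WT vs. plvx neo, 4 higher and 1 lower, beside 27.8% of all genes. FASN, fatty acid synthase, rose from between 258 and 283 TPM to between 397 and 407 TPM, by a log2 fold change of 0.56 (SE 0.0350, edgeR quasi-likelihood BH adjusted p = 5.5e-10). In W203C vs. WT 6 were called, 2 higher and 4 lower, beside 27.9% of all genes, among them BLVRB, biliverdin reductase B, at -0.29 (SE 0.0439, adjusted p = 4.2e-05), and FASN at -0.22 (SE 0.0385, adjusted p = 2.5e-04). FASN was the 1 call in W203C vs. plvx neo, beside 5.7% of all genes, at 0.33 (SE 0.0362, adjusted p = 1.2e-06), so that FASN and ME1 were both higher with either construct than with the vector.

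**Figure D3:**
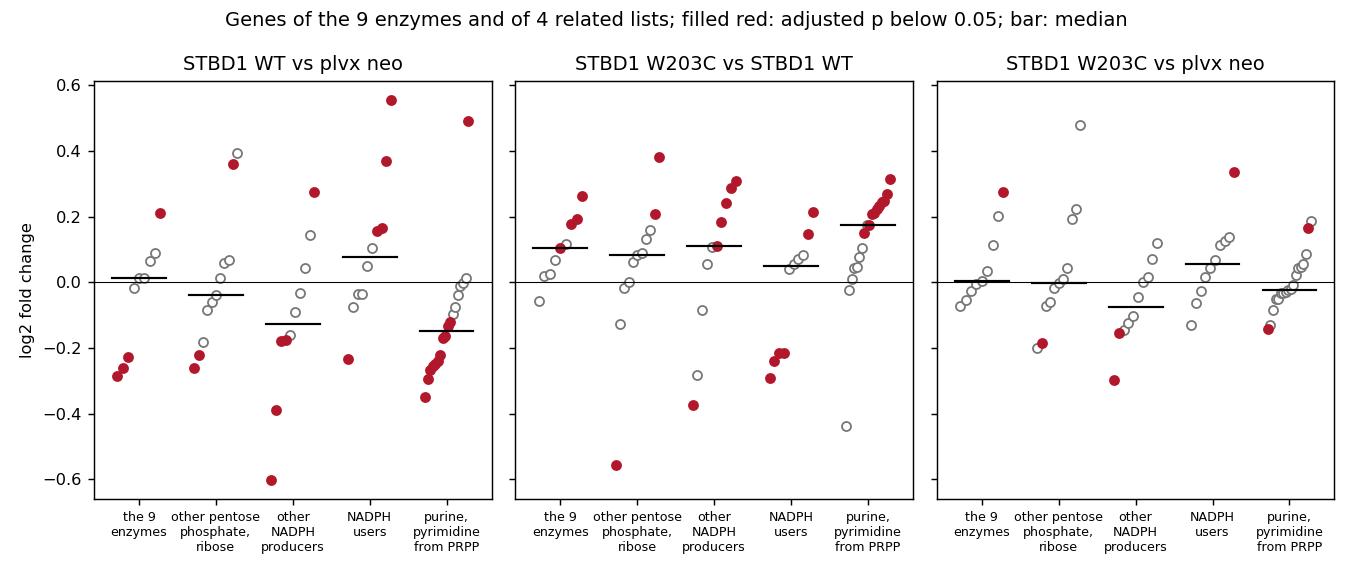
Log2 fold change in counts of the 9 enzymes and of the tested genes of 4 related lists in the 3 comparisons, each point a gene, filled red where the edgeR adjusted p was below 0.05, with the list median as a bar. The median of the purine and pyrimidine list lies at -0.15 in STBD1 WT vs. plvx neo and at 0.17 in STBD1 W203C vs. STBD1 WT.

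For the 3 enzymes whose group means ranged most, the genes with the nearest profile over the 9 libraries were sought among 11318 genes averaging 5 CPM or more. The measure was the root mean square distance between centred log2 CPM profiles. Nearest to RPIA were PAK1IP1 (0.0268) and XRCC1 (0.0273), where the median gene was at 0.155. Nearest to ME1 were CPOX (0.0296) and IVD (0.0316), with a median of 0.162, and nearest to PRPS1 were SLC39A14 (0.0302) and ERLIN1 (0.0324), with a median of 0.144. CPOX, an enzyme of haem synthesis, averaged 393 TPM with plvx neo, 479 with STBD1 WT and 493 with STBD1 W203C, the order of the ME1 means. That likeness follows from the search, and the ME1 difference between the constructs was not called. These distances describe libraries that share their groups and depth.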

How the data were processed

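RNA sequencing of 9 HCT116 libraries was analysed in 3 groups of 3, taken from the sample titles. Per the submitters' processing notes, the authors aligned read pairs to hg38 with STAR 2.7.1a and the models of Ensembl release 93 and quantified genes with RSEM 1.3.1. The deposited expected counts are estimated counts that divide ambiguous reads between transcripts and are not normalized. The deposited TPM values were scaled by the authors' RSEM run to effective transcript length and library total.

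Expected counts were rounded, filtered (filterByExpr), scaled by TMM and tested with edgeR 4.0.16 (quasi-likelihood F-test, R 4.3.3) on the 6 libraries of each comparison. P-values were adjusted by Benjamini-Hochberg over all genes tested and called below 0.05. The SE is the absolute log2 fold change divided by the square root of F. TPM was compared by two-sided exact permutation tests (SciPy 1.17.1). Alternatives used DESeq2 1.42.0, limma 3.58.1 on log2(TPM + 1) and log2(TPM + 0.1) for genes with a mean of at least 1 TPM, other scalings, effective-length offsets, no filter, all 9 libraries, a replicate block, counts summed with near-identical copies and each library left out. GC and length offsets were added after seeing the data. The test was checked on data simulated for STBD1 WT vs. plvx neo. Of 50 genes changed at each size, it recovered 26% at 1.15-fold, 72% at 1.3-fold, 90% at 1.5-fold and 86% at 2-fold. It made 7 false calls among the unchanged genes. In that simulation, where few genes changed, changes of 1.15-fold were thus mostly missed. In the data 27.8% of genes were called in this comparison, and PGD was called at 1.08-fold in W203C vs. WT. The simulated shares therefore do not give the recovery for the 9 enzymes. Depth was 16881429 to 23278126 expected counts per library, and intervals cover the spread between these libraries, whose independence is known only as biological replicates.

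Symbols were matched to 57754 of 58395 identifiers. The 9 enzymes and the 4 lists were chosen with earlier results of these data known. All 9 enzymes were named, and from each list up to 3 called genes of largest change per comparison, except some that are not reported here. For the 3 enzymes of widest range, the 2 nearest profiles were named. Coordinates are GENCODE v44 on GRCh38, and the sequences are RefSeq's.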

Additional observations from a re-analysis of the deposited data

How the results depend on the processing

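In STBD1 WT vs. plvx neo, leaving out each library gave 4 enzymes called in each fit, with log2 fold changes of -0.0074 to 0.036 for PGD, -0.0094 to 0.038 for TKT and -0.054 to 0.0047 for TALDO1. In STBD1 W203C vs. STBD1 WT the count ran from 2 to 3, and TALDO1 from -0.0100 to 0.058. In STBD1 W203C vs. plvx neo the count stayed at 1, and RPE ran from -0.10 to 0.0082, TALDO1 from -0.033 to 0.018 and IDH1 from -0.030 to 0.053.

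With upper-quartile scaling, 2 enzymes were called in W203C vs. WT, TKT (-0.0040) and TALDO1 (-0.011) turned direction there, and so did IDH1 in W203C vs. plvx neo (-0.00087). With effective-length offsets, 2 were called in W203C vs. WT and 0 in W203C vs. plvx neo. With limma on log2(TPM + 1) and log2(TPM + 0.1), 0 were called in W203C vs. plvx neo, and RPIA (0.012 and 0.013), RPE (0.021 and 0.022) and TALDO1 (0.029 and 0.029) turned. Ratios of mean CPM in place of TPM put RPIA at 0.982, RPE at 0.964 and TALDO1 at 0.997 there. GC and length offsets, added after seeing the data, gave 2 enzymes in W203C vs. plvx neo, turned PGLS (-0.078), PGD (-0.034) and TKT (-0.093) in WT vs. plvx neo and TALDO1 (0.011) in W203C vs. plvx neo, and gave PGLS 0.24 in W203C vs. WT and PGD 0.13 in W203C vs. plvx neo as calls. For the lists in W203C vs. plvx neo they gave 2 pentose phosphate and ribose genes, 1 gene listed with the NADPH producers, 2 NADPH users and 1 purine or pyrimidine gene. Under these offsets the median log2 fold change of all genes was -0.039 in WT vs. plvx neo and 0.037 in W203C vs. WT. The cause was not tested. RPE in WT vs. plvx neo lost its call with limma (adjusted p = 0.0536 and 0.0538), and PGD in W203C vs. WT without the filter (edgeR adjusted p = 0.0649).

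The same replicate number did not pair libraries (mean correlation of deviations 0.0139 for shared and -0.0069 for different numbers). With the number as a replicate block, PGD in W203C vs. WT had edgeR adjusted p = 0.0821, 3 NADPH users were called in W203C vs. plvx neo, and no other enzyme changed its call. Over all genes, effective-length offsets called 1906, 1582 and 119 genes and limma on log2(TPM + 1) 1701, 1779 and 118, against 4254, 4202 and 859. With 3 libraries a group, the SE of the enzymes' log2 fold changes ran from 0.0347 (TKT) to 0.0693 (PGLS), which limits the size of change that could pass.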

Other observations

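Several isozymes of the 9 enzymes and other NADPH genes were listed near 0 TPM in these libraries. Whether their reads were given to overlapping entries was not tested. The transketolase relatives TKTL1 and TKTL2 reached at most 0.09 TPM and 0 TPM in any library, the epimerase copy RPEL1 0.03 TPM, and the testis PRPP synthetase PRPS1L1 was listed at 0 in all 9. The mitochondrial malic enzyme ME3 reached 0.26 TPM, the folate dehydrogenase ALDH1L1 0.18 TPM and the glutamate dehydrogenase GLUD2 0.27 TPM. NNT, the mitochondrial transhydrogenase that also makes NADPH, reached 0.03 TPM, and CBR1, a carbonyl reductase that uses it, was listed at 0 throughout. None of these passed the filter on low counts, so none was tested between groups.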
